A study of Bombus terrestris with 70 samples.

Results

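The gene fem was followed in 3 tissues of queens of the bumble bee Bombus terrestris, the brain, fat body and ovary. It is 1 gene of the 10591 listed in at least 1 of the 3 deposited tables, it was taken by its symbol, and it had a value in all 68 libraries. Queens of the control group (C) had their eggs taken away and put back, which gave them the same disturbance as queens of the egg removal group (R), whose eggs were taken away to raise the costs of reproduction. Queens were sampled when 10% (TP1) or 60% (TP2) of their cohort had died. A library held the RNA of 1 tissue from 1 queen, and colonies were kept under standard conditions. All bees sampled were adult queens, so no male or worker was available for comparison, and the labels give no age in days.

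In the honey bee, fem (feminizer) is the counterpart of the fly gene transformer and lies in the middle of the sex determination cascade. Heterozygosity at the upstream gene csd leads to a female splice form of fem, which codes for a full-length splicing regulator. That protein keeps fem in its female form and directs the female splicing of doublesex. The choice between the sexes is thus made by splicing and not by the amount of transcript. The deposited values sum all transcripts of a gene, and RefSeq lists 3 transcripts for fem, so the measurements below concern the total amount of fem RNA and not its splice forms.

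The brain table held 22 libraries, with 6 queens in each TP1 group and 5 in each TP2 group. The fat body table also held 22, with 4 queens in control TP2 and 6 in each other group. The ovary table held 24, with 6 in every group. Estimated depth ran from 12.1 to 68 M reads per library. Between about 554 and 6156 reads lay behind the fem value of a library. Of the tissue markers sought by name only Def, an antimicrobial peptide gene of the fat body, could be identified. Its median was 87402 (fat body), 5289 (brain) and 236.2 (ovary), each on its own table's scale. Single libraries overlapped, since it ran from 15900 upward in fat body libraries and reached 74961 among brain and 68787 among ovary libraries. The ovary libraries of control TP2 stood apart from the rest on the first principal component, and their part in the fem results is given with those results.

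Expression of fem was of the same order in all 3 tissues. The normalised read count of fem had a median of 2259 (brain), 1832 (fat body) and 1777 (ovary). As a share of the table total, the median was 53.2 ppm (brain), 53.7 ppm (fat body) and 36.2 ppm (ovary). The ranges overlapped widely, at 34 to 81.7 ppm (brain), 11.2 to 122 (fat body) and 18.6 to 106.9 (ovary). The 3 tables were normalised separately, so these levels are set side by side without a test.

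**Figure D1:**
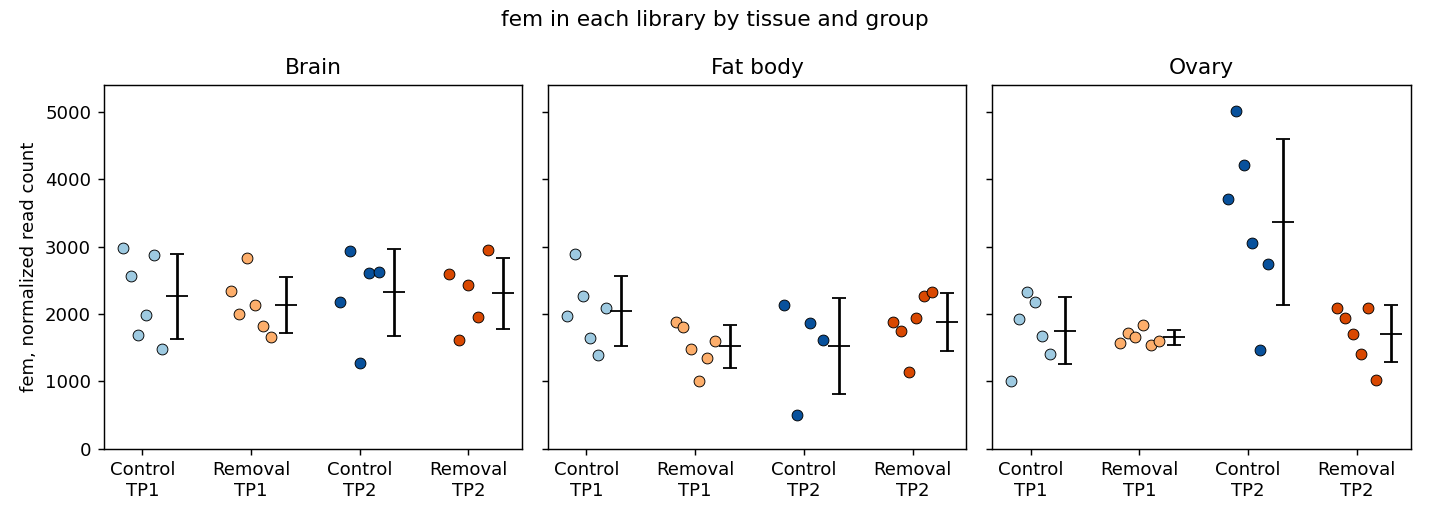
Normalised read count of fem (linear axis from 0) in each library, by tissue and group. Points are single queens, and the bar beside them is the mean ± SD of the group. Of the 6 ovary control TP2 libraries, 5 lie above all 18 other ovary libraries, while the brain and fat body groups overlap.

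The clearest difference was in the ovary, where fem was higher in control queens at TP2 than in any other group. In control TP2 the normalised read count was 3708, 5008, 4217, 3048, 1466 and 2734 in replicates 1 to 6. The 18 libraries of the other ovary groups lay between 1009 and 2331. Replicate 5 of control TP2 fell inside that range and the other 5 libraries lay above all of it, the lowest of them at 2734. As a share of the table total, replicate 4 of control TP2 (50.6 ppm) lay just below replicate 3 of control TP1 (51.5 ppm). The separation of that library thus depended on the scaling.

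The remaining ovary groups were close to each other. Control TP1 had a lowest, median and highest value of 1009, 1795 and 2331. Egg removal TP1 was the tightest group, with 1544, 1628 and 1832. Egg removal TP2 had 1017, 1816 and 2093. All 3 groups overlapped, and the group means were 1752 ± 494 in control TP1, 1653 ± 110 in egg removal TP1 and 1707 ± 426 in egg removal TP2 (SD, n = 6 each).

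Ageing was examined as TP2 against TP1 within a treatment. In the ovary of control queens fem rose by a log2 of 0.90 (SE 0.24, 95% interval 0.39 to 1.40), which is 1.86-fold, from 1752 ± 494 to 3364 ± 1237 (SD, n = 6 each). The limma fit over all 10401 genes gave an adjusted p of 0.00342. The call was not unusual in this comparison, since 61.8% of all genes were called and 31.1% were called higher, and fem ranked 3889 by p. In egg removal queens the log2 change of fem was 0.0050 (95% interval -0.50 to 0.51, adjusted p = 1). That interval runs from 0.707 to 1.42 of the TP1 level. limma called 0% of the ovary genes there, with 286 at an unadjusted p under 0.05.

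The treatments were compared within each time point. At TP2 ovaries of egg removal queens held less fem, by a log2 change of -0.92 (SE 0.24, 95% interval -1.43 to -0.42, adjusted p = 0.00296), at 0.528 of the control level. In this comparison 58.9% of genes were called and 30% were called lower, and fem ranked 3416 of 10401 by p. At TP1 the log2 difference was -0.032 (95% interval -0.54 to 0.47, adjusted p = 0.985). limma called 0% of ovary genes at TP1, with 1111 at an unadjusted p under 0.05. The TP2 comparison and the ageing comparison share the 6 control TP2 libraries, so the pair of calls is not independent.

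Both ovary calls held whichever single library was left out. The log2 change then lay between -1.14 and -0.78 for egg removal at TP2 and between 0.75 and 1.11 for ageing in control, each with the strongest value when control TP2 replicate 5 was absent. Two-sided exact permutation tests on fem alone gave p = 0.0173 for egg removal at TP2 and p = 0.0216 for ageing in control. In fits of the 2 groups compared alone, the limma adjusted p was 0.0229 and 0.0278 in the same order. With weights per group the limma adjusted p was 0.0243 and 0.0318. These values are larger than those of the main fit, where all 4 groups shared 1 estimate of the spread and control TP2 was the widest group.

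The difference between the ageing changes, tested as the interaction of treatment and time point, was at the threshold. The change in egg removal minus that in control was a log2 of -0.89 (SE 0.34, 95% interval -1.60 to -0.18, limma adjusted p = 0.0488). In this comparison 34.9% of ovary genes were called, and 17.3% were called with a value below 0. The call was kept in 6 of 24 fits that left out 1 library, with adjusted p from 0.00406 to 0.0876. Leaving out control TP2 replicate 5 gave the smallest of these p-values and leaving out control TP1 replicate 1 the largest, and the log2 difference stayed between -1.11 and -0.74.

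**Figure D2:**
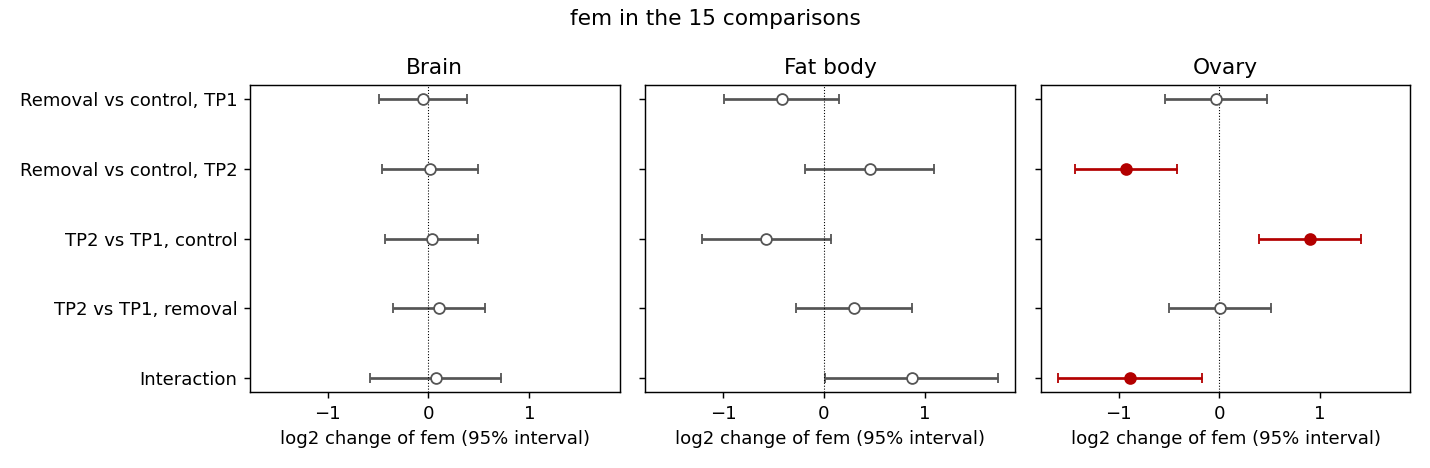
Log2 change of fem (horizontal axis, with its 95% interval from the limma fit) in the 5 comparisons of each tissue. Filled red points have an adjusted p under 0.05. They are the ovary at TP2 (-0.92), ageing in control ovaries (0.90) and the ovary interaction (-0.89), and every interval in the brain includes 0.

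The high fem values came from libraries that stood apart as a whole. The first principal component of the ovary libraries, computed without fem, held 55.6% of the variance. On it control TP2 replicates 1 to 6 scored 193.6, 104.4, 107, 204.5, 19.3 and 39.7, and the 18 other libraries lay between -62.2 and 5.25. Replicate 5, with the lowest fem of its group, was also nearest to the other groups on this component. The libraries farthest out, replicates 4 and 1, held less fem than replicates 2 and 3.

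Replicates 4 and 1 were also the shallowest ovary libraries, at 23.7 and 19.6 M reads, against 43.6 to 68 M reads in the rest. Without both of them, a choice made after the data were seen, fem was still higher with age in control by a log2 of 0.85 (limma adjusted p = 0.0172) and lower in egg removal at TP2 by a log2 change of -0.87 (limma adjusted p = 0.0153). The interaction was then -0.84 with an adjusted p of 0.108. In whole-tissue RNA a larger share of cells that carry fem and more fem per cell cannot be told apart. Which of these differed in control TP2 ovaries was not tested.

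**Figure D3:**
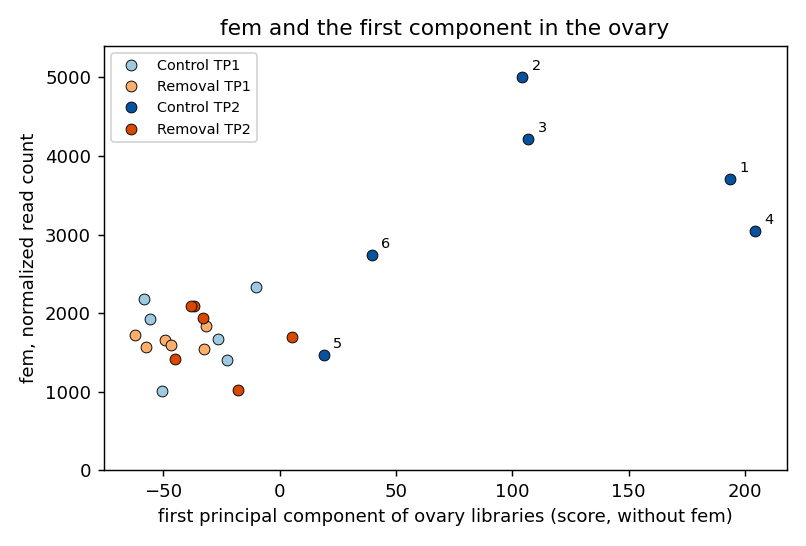
Normalised read count of fem (vertical axis) against the score of each ovary library on the first principal component (horizontal axis), with control TP2 libraries marked by replicate number. All 6 control TP2 libraries score 19.3 or more and the other 18 score 5.25 or less, while the highest fem value, 5008 in replicate 2, is at a score of 104.4.

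In the brain no comparison of fem passed the threshold. Control TP1 had a lowest, median and highest value of 1476, 2276 and 2976, and egg removal TP1 of 1651, 2072 and 2832. Control TP2 libraries were at 2175, 2930, 1278, 2607 and 2619, and egg removal TP2 libraries at 2588, 1618, 2423, 1954 and 2951. All 4 groups overlapped over most of their range. Ordered by mean, the groups ran from control TP2 (2322 ± 643, n = 5) and egg removal TP2 (2307 ± 526, n = 5) to control TP1 (2262 ± 633, n = 6) and egg removal TP1 (2132 ± 419, SD, n = 6), and no step in this order exceeded the spread within a group.

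The 4 log2 differences between brain groups lay between -0.058 and 0.10, with limma adjusted p of 0.916 or more. Their 95% intervals reached from -0.49 at the lowest to 0.56 at the highest, and the latter is a 1.48-fold change. The share of all brain genes called was 2.37% for egg removal at TP1, 8.57% for egg removal at TP2, 2.57% for ageing in control and 0.0481% for ageing in egg removal. The brain interaction for fem was 0.073 (95% interval -0.57 to 0.72, adjusted p = 0.999), in a comparison where limma called 0% of genes and 446 had an unadjusted p under 0.05.

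Fat body values of fem also overlapped between all groups, with wider intervals. Control TP1 had a lowest, median and highest value of 1396, 2034 and 2891. Egg removal TP1 had 1009, 1540 and 1874, so that its highest library lay below the control median. Control TP2 libraries were at 2127, 502.7, 1861 and 1617 in replicates 1, 2, 3 and 5. Egg removal TP2 had 1133, 1910 and 2326. The value of 502.7 in control TP2 replicate 2 was the lowest fem value of any of the 68 libraries.

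Ordered by mean, the fat body groups were control TP1 (2045 ± 521, n = 6), egg removal TP2 (1881 ± 431, n = 6), control TP2 (1527 ± 714, n = 4) and egg removal TP1 (1520 ± 317, SD, n = 6). At TP1 fem was at 0.748 of the control level in egg removal, a log2 difference of -0.42 (95% interval -0.99 to 0.15) with a limma adjusted p of 0.252, where 32.4% of all genes were called. At TP2 the difference had the other sign, at 0.45 (95% interval -0.19 to 1.09, adjusted p = 0.371, 4.6% of genes called). Neither difference passed the threshold. Fits of the 2 groups compared alone gave a limma adjusted p of 0.0868 at TP1 and 0.529 at TP2. Exact permutation tests on fem alone gave p = 0.0628 at TP1 and p = 0.367 at TP2.

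Ageing in the fat body gave a log2 change of -0.57 in control (95% interval -1.21 to 0.068, limma adjusted p = 0.327, 1.24% of genes called) and of 0.30 in egg removal (95% interval -0.27 to 0.87, adjusted p = 0.529, 5.99% of genes called). The interaction was 0.87 (95% interval 0.014 to 1.73), with an unadjusted p of 0.0468 and a limma adjusted p of 0.261, where 1.05% of genes were called. The values that use control TP2 moved most with its replicate 2. Without it the change with age in control was -0.10, the difference at TP2 was -0.018 and the interaction was 0.40 (limma adjusted p = 0.488).

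The fat body comparison at TP1 also depended on the scaling. With all libraries brought to 1 total, the log2 change of fem at TP1 was -1.17 (limma adjusted p = 0.0167), while the median over all genes shifted to -0.80 from -0.089, so fem lay 0.36 below the median gene. Depth was 14.1 to 49.5 M reads in control TP1 and 35.5 to 58.3 M reads in egg removal TP1, and with estimated depth as a covariate the log2 change of fem was 0.032 (adjusted p = 0.955).

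Single queens of one group differed in fem more than in most genes of a like level. The residual SD of fem on the log2 scale, after group means were taken out, was 0.383 (brain), 0.508 (fat body) and 0.436 (ovary). Of the 500 genes closest to fem in mean value, 93.8% had a lower SD in brain libraries, 85% in fat body libraries and 69% in ovary libraries. Among all genes tested, 73.1%, 57.6% and 49.3% had a lower residual SD than fem. Within single groups the coefficient of variation ran from 6.65% in ovary egg removal TP1 to 46.7% in fat body control TP2.

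This spread was shared with many other genes. Likeness to fem was measured as the Pearson r of log2 values over the libraries of a tissue after group means were subtracted. Differences between group means thus did not contribute, but groups with a wider spread still weighed more. In the ovary the SD of fem ran from 110 in egg removal TP1 to 1237 in control TP2. In the brain 787 of 9705 genes had an r of at least 0.8 in either direction, 368 positive and 419 negative, against a median of 83 such genes for the 500 genes of like level. In the fat body the count was 145 of 9357 against a median of 18. In the ovary it was 459 of 9749 against a median of 231.5. These values are descriptions, since the genes of a library share its depth and scaling.

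**Figure D4:**
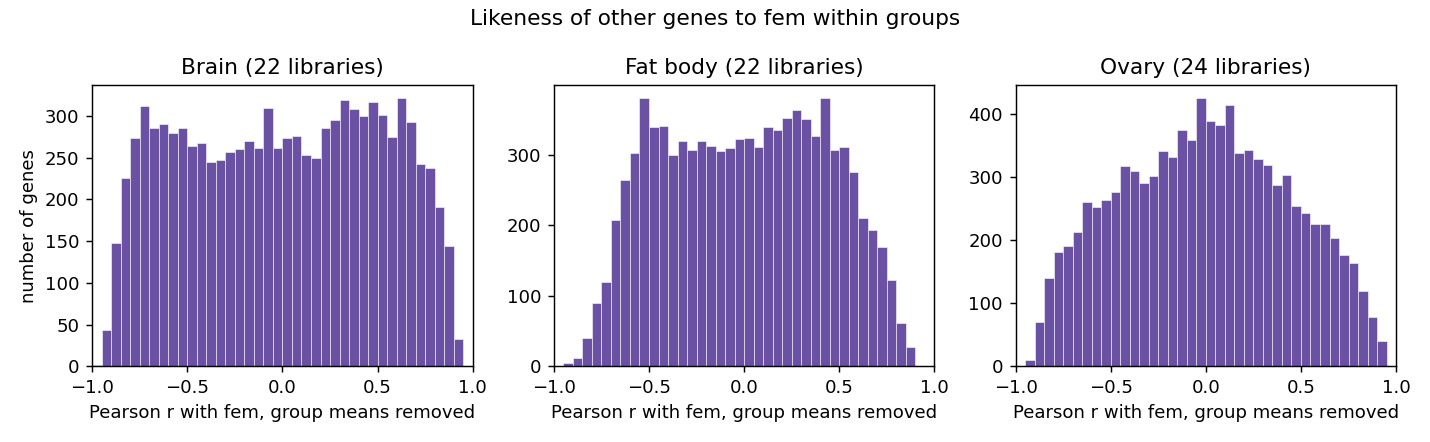
Number of genes (vertical axis) by their Pearson r with fem over the libraries of a tissue after group means were removed (horizontal axis). In the brain 787 genes reach an r of 0.8 in either direction, and the ovary distribution peaks near 0.

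The genes with the highest positive r differed from tissue to tissue. In the brain they were LOC100646093 (r = 0.948), LOC100645253 (r = 0.945) and LOC100644206 (r = 0.930) over 22 libraries. In the fat body they were LOC100652227 (r = 0.899), LOC100643983 (r = 0.897) and LOC100647511 (r = 0.895), also over 22 libraries. In the ovary they were LOC100644779 (r = 0.955), LOC100646749 (r = 0.948) and LOC105667033 (r = 0.946) over 24 libraries. Negative r was as strong, down to -0.953 for LOC100644605 among brain libraries, -0.945 for LOC100643384 in the fat body and -0.936 for LOC100651222 in the ovary. The reference table gives these identifiers no product name, so no function is stated.

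By their lowest r over the 3 tissues, the genes most like fem were LOC100643205, LOC100646154 and LOC100650056 among 9078 genes measured in all. LOC100643205 had r of 0.833 (brain), 0.871 (fat body) and 0.824 (ovary). LOC100646154 had 0.825, 0.862 and 0.8005, and LOC100650056 had 0.782, 0.847 and 0.865. Group means did not enter this choice. The ovary deviations were widest in control TP2, so genes that follow fem there also follow the libraries that stand apart, and their ovary differences below are a description and no independent support.

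With 61.8% of ovary genes called for ageing in control and 58.9% for egg removal at TP2, 2 of the 3 genes were called in both. LOC100646154 rose with age in control by a log2 of 0.85 (SE 0.18, limma adjusted p = 0.00055), from 3850 ± 410 to 7170 ± 1982 (SD, n = 6 each). It was lower in egg removal at TP2 by a log2 change of -0.91 (limma adjusted p = 0.00034). LOC100643205 rose by 0.85 with age in control (limma adjusted p = 0.00315), from 4460 ± 905 to 8700 ± 4141, and differed by -0.72 in egg removal at TP2 (adjusted p = 0.0104). LOC100650056 had 0.41 (adjusted p = 0.104) and -0.24 (adjusted p = 0.355) in the same comparisons. Among brain and fat body libraries none of the 3 genes passed the limma threshold in any of the 5 comparisons, as was the case for fem. Genes most like fem in a single tissue did not all share its ovary differences. LOC100644206, LOC100652227 and LOC100647511 went the other way, by -0.73, -0.57 and -0.55 with age in control (limma adjusted p = 0.000539, 0.011 and 0.00196). In egg removal at TP2 they differed by 0.67, 0.75 and 0.44 (limma adjusted p = 0.00124, 0.00182 and 0.0105). Of the others, only LOC100646749 was called, higher with age in control (0.92, limma adjusted p = 0.018).

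Within groups, fem followed properties of the whole library in 2 of the tissues. A total of 9 such relations were computed, with libraries permuted within groups and p-values adjusted over the 9. The first component of the within-group deviations, computed without fem and oriented to fem, held 33.2% (brain) and 25.9% (fat body) of them. In the brain fem had a Pearson r of 0.667 with it (permutation p = 0.00031, adjusted 0.00093) and a Spearman rho of 0.682 (permutation p = 0.00053, adjusted 0.00159, n = 22). In the fat body r was 0.755 (permutation p = 2e-05, adjusted 0.00018) and rho 0.774 (permutation p = 3e-05, adjusted 0.000135, n = 22). Without the 2 libraries farthest from the median of the component, r was 0.623 (brain) and 0.695 (fat body). In the ovary r was 0.236 (permutation p = 0.519, adjusted 0.667) and rho -0.056 (permutation p = 0.826, adjusted 0.826, n = 24). By construction this component is the main axis of the deviations of all other genes. The share of genes with an r as large as that of fem was not computed. The permutation p-values thus concern fem alone and do not set it apart from other genes.

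The table total moved with fem as well. In the fat body fem was lower in libraries with a higher total, with r of -0.862 (permutation p = 1e-04, adjusted 0.00045) and rho of -0.872 (permutation p = 1e-05, the smallest that the permutations can give, adjusted 9e-05, n = 22), and r of -0.723 without the 2 libraries farthest out. In the brain the sign was the opposite, with r of 0.488 (permutation p = 0.00399, adjusted 0.00898) and rho of 0.457 (permutation p = 0.0322, adjusted 0.0483, n = 22), and r of 0.418 without 2 libraries. In the ovary r was -0.127 (permutation p = 0.723, adjusted 0.723) and rho -0.137 (permutation p = 0.593, adjusted 0.667, n = 24).

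Estimated depth had a negative relation to fem within groups in the same tissues. For brain libraries r was -0.508 (permutation p = 0.0471, adjusted 0.0706) and rho -0.530 (permutation p = 0.0266, adjusted 0.0479, n = 22), and in the fat body r was -0.603 (permutation p = 0.036, adjusted 0.0648) and rho -0.613 (permutation p = 0.00926, adjusted 0.0208, n = 22). Without the 2 libraries of most extreme depth r was -0.529 and -0.541. In the ovary r was 0.126 (permutation p = 0.723, adjusted 0.723) and rho 0.139 (permutation p = 0.574, adjusted 0.667, n = 24). Among these libraries, depth and the other properties were not separated from differences between queens.

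In the RefSeq gene order the nearest genes with values in all 3 tables were LOC100642389 and LOC110120091 on one side of fem and LOC100631064 and LOC100645613 on the other. LOC110120091 is listed as a long noncoding RNA and the other 3 as protein-coding. In the ovary, 3 of these 4 rose with age in control and the same 3 were lower in egg removal at TP2, against 31.1% and 30% of all genes called in those directions. LOC100631064 went from 2348 ± 324 to 3991 ± 1339 (SD, n = 6 each), a log2 change of 0.72 (SE 0.15, limma adjusted p = 0.000338), and differed by -0.82 in egg removal at TP2 (adjusted p = 0.000141). LOC100645613 changed by 0.68 and -0.87 (limma adjusted p = 0.00773 and 0.00141) and LOC110120091 by 1.12 and -1.57 (limma adjusted p = 0.0195 and 0.00225). LOC100642389 had 0.41 and -0.37 (limma adjusted p = 0.22 and 0.277). The ovary interaction was called lower for 3 of the 4 neighbours, against 17.3% of all genes. These were LOC100642389 (-1.06, limma adjusted p = 0.0466), LOC100631064 (-0.56, 0.0437) and LOC100645613 (-0.76, 0.0478). LOC110120091 was not called there (-1.17, limma adjusted p = 0.105).

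The within-group r of the neighbours with fem lay between -0.594 for LOC100642389 and 0.528 for LOC100645613 among brain libraries, between -0.250 and 0.421 among fat body libraries and between -0.055 and 0.410 among ovary libraries. In the fat body at TP1, LOC100631064, LOC110120091 and LOC100645613 were lower in egg removal by log2 changes of -0.44, -1.51 and -1.49 (limma adjusted p = 0.00428, 0.043 and 0.00369). LOC100642389 had 0.30 (limma adjusted p = 0.358) and fem had -0.42, where 32.4% of all genes were called in either direction. At TP2 the neighbours called were LOC100645613 in the fat body (-1.61, limma adjusted p = 0.0271), and LOC100642389 (-0.46, limma adjusted p = 0.0122) and LOC100645613 (-0.44, limma adjusted p = 0.0206) in the brain, all lower in egg removal. In these comparisons 4.6% of fat body and 8.57% of brain genes were called in either direction. A list of sex determination genes was sought by symbol, among them csd, tra2, dsx, fru, Sxl and ix. Only fem could be identified, so no other gene of the cascade described for the honey bee was analysed here. Whether that cascade holds in this species was not tested.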

How the data were processed

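Messenger RNA libraries were made with a stranded kit and run on 2 lanes, per the labels. The deposited values are normalised counts (a signal with decimals), 1 table per tissue. The submitters' processing notes name, for the authors' processing, kallisto 0.46.1, R 4.0.1 and DESeq2 1.28.1 with no role, and genome build and annotation are not stated there or in the labels. In each table the median ratio of values to each gene's geometric mean was the same in all columns, so libraries had been scaled within their tissue. Labels list 70 samples and the tables hold 68, without fat body control TP2 replicates 4 and 6.

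Depth was estimated by dividing the table total by what 1 read is worth, which was the median of positive values under 1.6 times the one ranked 10 from the lowest. This is approximate, and no counting interval was computed. Reads shared with a similar gene copy cannot be identified. Whether any of the named neighbours of fem, LOC100631064 among them, is such a copy could not be checked.

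Each tissue was fitted alone on log2(value + 1) with limma 3.58.1 (R 4.3.3, statmod 1.5.0; trend and robust options), with a mean for each of 4 groups that shared 1 estimate of the spread. Genes with a mean of at least 1 in at least 1 group entered (10388 in the brain, 10383 in the fat body, 10401 in the ovary). P-values were adjusted by Benjamini-Hochberg over all genes of a comparison, with a threshold of 0.05, two-sided, and intervals are 95%. The fit was also run on simulated data, with genes drawn independently and 1 spread per gene in all 4 groups. Unequal spread between groups, as in the ovary, was thus not tested. The limma p-values set a difference of group means against the spread between libraries of single queens, pooled over the 4 groups. Alternatives were the same total, a pseudocount of 10, other filters, weights, a replicate block, depth, fits of 2 groups, exact permutation and leaving out each library.

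Gene and lists were chosen with earlier results of these data known. Genes named besides fem are, by rule, those most like fem within groups (mean of at least 10) and, chosen after the data were seen, the 2 nearest RefSeq genes on each side that had values in all 3 tables (assembly iyBomTerr1.2, used only for names and order). No sequence of fem was at hand, so none is printed.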

Additional observations from a re-analysis of the deposited data

Results flagged for a closer look

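The change of fem with age differed between treatments in the ovary, by a log2 of -0.89 (SE 0.34, limma adjusted p = 0.0488), which is at the threshold. The test of the difference itself drew attention to it. In that comparison 34.9% of ovary genes were called, and for fem the call was kept in only 6 of 24 fits that left out 1 library. Control means were 1752 at TP1 and 3364 at TP2, and egg removal means were 1653 and 1707 (n = 6 in each group). No group had a single library beyond the limit for an outlier, and the widest gap was that of fat body control TP2 replicate 2.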

How the results depend on the processing

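The ovary calls for egg removal at TP2 and for ageing in control kept their direction and their side of the threshold in every alternative run. The ovary interaction lost its call with libraries scaled to the same total (-0.80, limma adjusted p = 0.0923), weights per group (-0.89, 0.0612), estimated depth as a covariate (-0.95, 0.062) and without control TP2 replicates 4 and 1 (-0.84, 0.108). It kept it with weights per library (-1.01, 0.000212). The cause was not tested. The only gained call was egg removal at TP1 in the fat body, at -1.17 with the same total. Signs turned for values that were not called, among them the fat body differences of -0.42 at TP1 and 0.45 at TP2. With the same total the brain difference at TP2 was -0.29. With weights per library it was -0.16, and the brain interaction -0.027. With depth as a covariate the brain difference at TP1 was 0.022, ageing in brain control -0.22 and the fat body difference at TP1 0.032.

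Replicate numbers are shared between groups but the labels do not say that they pair queens, and the correlations of same-numbered deviations ran from -0.54 to 0.657. Between the TP1 groups their median was 0.146 in both brain and ovary, against -0.034 and -0.047 for other numbers, but only 3 and 4 of 6 exceeded 0.1, so the numbers were not taken to pair the queens. With the replicate block the brain difference at TP2 was -0.075 and the brain interaction -0.018, both reversed in sign and not called, and the ovary interaction was -0.89 with a limma adjusted p of 0.0467. The block changed no call.

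Leaving out 1 library at a time gave these ranges of log2 change. In the brain they were -0.17 to 0.031 (egg removal, TP1), -0.19 to 0.13 (egg removal, TP2), -0.081 to 0.23 (ageing, control), 0.0076 to 0.22 (ageing, egg removal) and -0.13 to 0.19 (interaction). In the fat body they were -0.52 to -0.31, -0.018 to 0.67, -0.79 to -0.10, 0.19 to 0.44 and 0.40 to 1.09 in the same order. In the ovary they were -0.18 to 0.061, -1.14 to -0.78, 0.75 to 1.11, -0.063 to 0.15 and -1.11 to -0.74. The interaction in the ovary was called in 6 of these 24 fits and no brain or fat body value was called in any. The planned percentile of fem per coding length was not run, since no lengths were at hand.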

Other observations

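The labels number the queens alike in each tissue but do not say that equal numbers are the same queen. The within-group deviations of fem were compared between tissues for libraries with the same group and number, as 3 relations with libraries permuted within groups. Brain and fat body had a Pearson r of -0.313 (permutation p = 0.417, adjusted 0.564) and a Spearman rho of -0.233 (permutation p = 0.399, adjusted 0.876, n = 20), and r of -0.220 without the 2 libraries farthest out. Brain and ovary had r of -0.150 (permutation p = 0.564, adjusted 0.564) and rho of -0.092 (permutation p = 0.714, adjusted 0.876, n = 22), and r of -0.157 without 2. Fat body and ovary had r of -0.256 (permutation p = 0.481, adjusted 0.564) and rho of -0.039 (permutation p = 0.876, adjusted 0.876, n = 22), and r of -0.018 without 2. A relation between tissues was not detectable in these numbers of libraries.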
